A study of Homo sapiens with 16 samples.

Results

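The genes described here are 8 coregulators of nuclear receptors: the coactivators NCOA1, NCOA2, NCOA3 and NCOA7, the Mediator subunit MED1, the corepressor NCOR1, its partner TBL1XR1, and the corepressor NRIP1. They were found by matching the gene identifiers of the deposited table to these symbols, and all 8 of them were among its 62700 genes. All 8 were also among the 14643 genes tested, for which the mean of the 16 libraries reached 10 normalized counts. The libraries came from OCI-AML3, an established acute myeloid leukemia (AML) cell line, profiled by bulk RNA-seq after 3 h of treatment. Untreated cells gave 4 libraries and each of 4 treatments gave 3. The cells received all-trans retinoic acid (ATRA) at 0.1 µM or AM80 at the same dose, each either alone or together with a pair of inhibitors, GSK-LSD1 at a dose of 0.1 µM plus MB3 at a dose of 100 µM. GSK-LSD1 inhibits the lysine demethylase LSD1 and MB3 the histone acetyltransferase GCN5, and both together are called the inhibitors here. No group received the inhibitors without a retinoid, so a change on adding them was measured on top of ATRA or AM80. All groups are 1 cell line, and nothing in the labels or methods says that the libraries of a group came from separate cultures, so the p-values measure the spread between these libraries, which may be technical.

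Retinoic acid receptors (RARs) sit on DNA together with a retinoid X receptor (RXR). Without an agonist they hold corepressor complexes built on NCOR1, in which TBL1XR1 or TBL1X and the histone deacetylase HDAC3 are the core partners. An agonist turns the receptor surface over to coactivators: the p160 family NCOA1, NCOA2 and NCOA3, which bring in the acetyltransferases CREBBP and EP300, and Mediator, whose MED1 subunit touches the receptor and links it to RNA polymerase II. NRIP1, also called RIP140, binds agonist-loaded receptors as the coactivators do but recruits repressors, and it is known as a gene that retinoids induce. ATRA is the natural ligand of all RARs, and AM80 (tamibarotene) is a synthetic retinoid selective for RARA in which aromatic rings joined by an amide take the place of the polyene chain.

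The depth was 11963898 to 33789718 reads counted on genes per library. Normalized counts, the unit used below, are the reads of a library divided by its size factor, a measure of relative depth. Myeloid markers were expressed, with PTPRC (CD45) at 5063 to 13998 reads per library, while the T cell, erythroid and epithelial markers looked at had at most 3 reads in every library. Replicate 4 of the untreated cells stood apart for these genes. It had the lowest normalized count of the 4 untreated libraries for 8 of 8 coregulators, at 66.5% (TBL1XR1) to 81.5% (NCOA1) of the mean of the other 3. Over all genes tested it was the lowest for 35.8%. Its median over all genes differed from the mean of the other 3 by 0.013%, a difference that size factors are set to keep small. Changes against untreated cells are therefore given with and without it. In bulk RNA, less RNA of a gene per cell and fewer cells that make it cannot be told apart.

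The promoter sequences of 3 of the genes are shown, because NCOA3 and NRIP1 had the largest changes with a retinoid alone and MED1 was among the genes that were raised on adding the inhibitors but not called with a retinoid alone. Each run is the 250 bases before a transcription start in RefSeq (GRCh38.p14), written 5′ to 3′ on the gene's strand. Capitals mark the GC box GGGCGG and the CCAAT box, on either strand, and these 2 motifs were chosen after values had been seen.
NCOA3 (chr20:47501637-47501886, plus strand): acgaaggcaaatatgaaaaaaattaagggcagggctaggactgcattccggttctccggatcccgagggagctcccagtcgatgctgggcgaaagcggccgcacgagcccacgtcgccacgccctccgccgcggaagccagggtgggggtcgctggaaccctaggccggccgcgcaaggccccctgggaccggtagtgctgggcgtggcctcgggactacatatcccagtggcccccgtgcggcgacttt
NRIP1 (chr21:15065937-15066186, minus strand): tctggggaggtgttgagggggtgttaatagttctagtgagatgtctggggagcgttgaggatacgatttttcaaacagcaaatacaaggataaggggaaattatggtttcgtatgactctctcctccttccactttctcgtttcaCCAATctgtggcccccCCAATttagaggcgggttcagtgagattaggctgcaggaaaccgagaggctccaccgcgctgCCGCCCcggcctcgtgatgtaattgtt
MED1 (chr17:39451264-39451513, minus strand): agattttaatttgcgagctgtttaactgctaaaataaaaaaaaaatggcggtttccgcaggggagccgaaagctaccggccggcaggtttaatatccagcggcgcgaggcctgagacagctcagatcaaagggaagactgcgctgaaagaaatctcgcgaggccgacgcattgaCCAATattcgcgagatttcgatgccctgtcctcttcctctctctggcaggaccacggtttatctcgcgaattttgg
The NRIP1 run holds 1 GC box and 2 CCAAT boxes, the MED1 run holds 1 CCAAT box, and the NCOA3 run holds neither. NRIP1 also has other starts, not shown, whose runs hold 4 and 2 GC boxes and 0 CCAAT boxes. Over all 35116 RefSeq windows, which run from 250 bases before to 50 after a start, 45.0% held a GC box and 34.6% a CCAAT box. The core receptor motif was searched in 2 forms, AGGTCA and AGTTCA, on both strands in the same windows. None of the 15 windows of the 7 coregulator genes that the table holds had either form, against 22.6% of all windows. None had the direct repeat of 2 such forms spaced by 5 bases, which 7 of all windows had. Other forms, such as GGGTCA and GGTTCA, were not searched, and the NRIP1 run shown holds GGTTCA. No match says only that these letters are not in these short windows.

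Before treatment MED1 was the most abundant of the 8 per length. Levels between genes are given as RPKM, the reads of a gene scaled to its exon length and to the counted reads of the library, with exon lengths from GENCODE 29. The length was that of all annotated exons of a gene merged, 7330 bases for MED1 and 15404 for NCOR1. A single transcript can be shorter, so the order between genes depends on this choice. In untreated cells MED1 stood at 22.6 ± 3.25 RPKM (SD, n = 4), NCOR1 at 15.5 ± 2.88 and TBL1XR1 at 11 ± 2.29. NCOA2 followed at 8.58 ± 1.58, NRIP1 at 6.47 ± 1.12 and NCOA3 at 6.27 ± 1.21, and the lowest were NCOA1 at 3.85 ± 0.544 and NCOA7 at 1.92 ± 0.328. MED1 lay above all others, the ranges of each neighbouring pair from NCOR1 down to NCOA3 overlapped, and NCOA1 and NCOA7 lay apart below them. With ATRA, NCOA3 stood at 19.9 ± 0.617 RPKM (SD, n = 3), second only to MED1 at 24.9 ± 0.273. NCOA3 was sixth in untreated cells and second in each of the 4 treated groups, although with AM80 its range overlapped that of TBL1XR1.

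**Figure D1:**
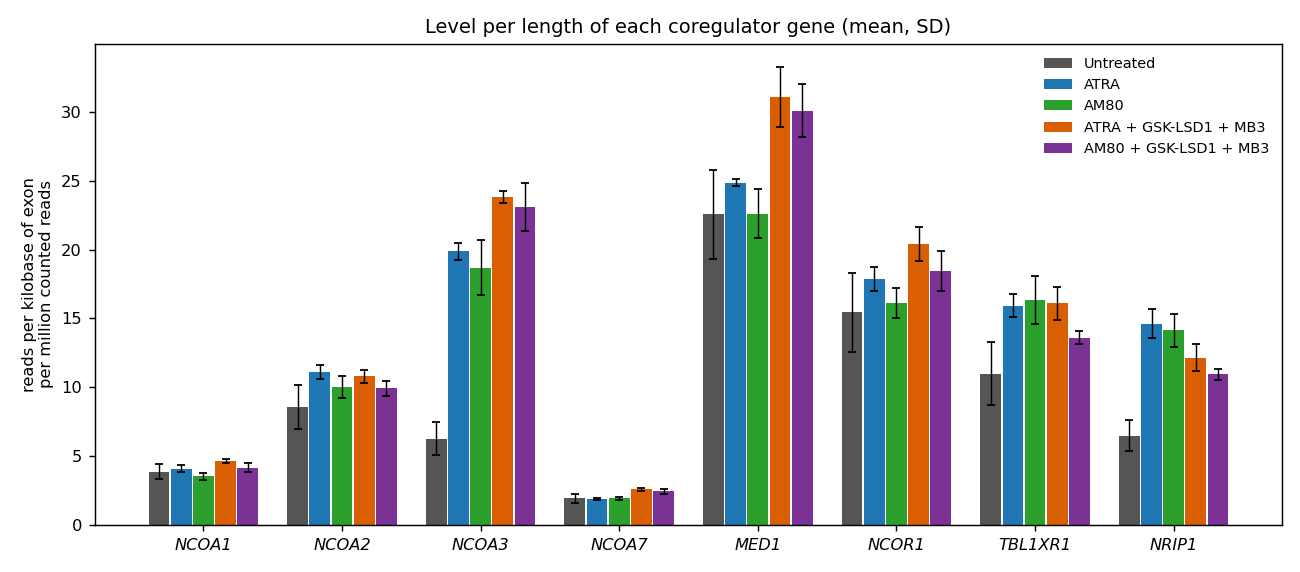
Level of each of the 8 coregulator genes in each group, in RPKM. Bars are means and error bars SDs over 4 untreated or 3 treated libraries, and NCOA3 rises from 6.27 in untreated cells to 19.9 with ATRA, past NCOR1.

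The first question of the design was what a retinoid alone did within 3 h. NCOA3 and NRIP1 rose by the largest factors, TBL1XR1 and NCOA2 rose less, and NCOR1, NCOA1, MED1 and NCOA7 were not called. Of the 8 genes, 4 rose and 0 fell with ATRA and 4 rose and 0 fell with AM80 (limma, Benjamini-Hochberg adjusted p under 0.05), and the 4 were the same genes. Over all genes tested, 12.5% were called higher with ATRA and 15.4% with AM80, and 10.3% with both, while 12.1% and 13.4% were called lower. The 8 coregulators had a median log2 fold change that stood at 0.31 with ATRA and 0.22 with AM80, beside -0.02 and -0.01 over all genes tested. The untreated libraries served both comparisons, which are therefore not independent of each other. All ATRA libraries lay above all untreated ones for 5 of the 8 genes (15.7% of all genes tested) and all AM80 libraries for 3 (15.8%). Without replicate 4 of the untreated cells, 4 of 8 were again called higher with each retinoid.

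NCOA3 (SRC-3, also called AIB1) is the p160 coactivator that is amplified in breast cancer. Its normalized counts were 892, 1024, 958 and 671 in the 4 untreated libraries, 2917, 2767 and 2784 with ATRA and 2615, 3084 and 2599 with AM80. Every retinoid library was above every untreated one by a wide gap. The log2 fold change was 1.69 ± 0.10 (SE) with ATRA, a 3.22-fold rise (limma adjusted p = 3.38e-11). With AM80 it was 1.65 ± 0.10, a 3.15-fold rise (limma adjusted p = 4.87e-11). Without replicate 4 of the untreated cells the log2 values were 1.56 and 1.53. From the largest rise downward, NCOA3 was gene 261 of 14643 with ATRA and gene 263 with AM80.

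NRIP1 was the other gene that more than doubled. Its normalized counts were 948, 1005, 1033 and 718 in untreated cells, 2279, 1975 and 2047 with ATRA and 2088, 2303 and 1953 with AM80. Here too the groups did not overlap. The log2 fold change was 1.19 ± 0.10 (SE) with ATRA (limma adjusted p = 5.48e-09) and 1.20 ± 0.10 with AM80 (adjusted p = 4.69e-09), or 2.29-fold and 2.3-fold. Without replicate 4 of the untreated cells the log2 values were 1.08 with each. A coactivator and a corepressor of the same receptors had the largest rises of the 8 genes.

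TBL1XR1, which with TBL1X exchanges corepressors for coactivators on receptors, showed 2499, 2241, 2289 and 1558 normalized counts in untreated cells, 3264, 2879 and 3236 with ATRA and 3433, 3659 and 2948 with AM80. The highest untreated library lay below the lowest library of either retinoid. The log2 fold change was 0.56 ± 0.11 (SE) with ATRA (limma adjusted p = 0.000770) and 0.66 ± 0.11 with AM80 (adjusted p = 0.000136), and without replicate 4 of the untreated cells 0.42 and 0.51. NCOA2 (SRC-2), the second p160 gene to rise, had 1389, 1575, 1693 and 1139 in untreated cells, 1975, 1834 and 1834 with ATRA and 1697, 1918 and 1689 with AM80. The ATRA libraries lay above all untreated ones, while 1 AM80 library lay just below the highest untreated one. Its log2 fold change was 0.39 ± 0.10 (SE) with ATRA (limma adjusted p = 0.00417) and 0.30 ± 0.10 with AM80 (adjusted p = 0.0222). Without replicate 4 of the untreated cells the log2 values were 0.28 and 0.19. The AM80 call of NCOA2 was lost without AM80 replicate 2 (log2 fold change 0.24, limma adjusted p = 0.107) and without untreated replicate 1 (0.29, adjusted p = 0.0538). It was also lost with quantile normalization (0.26, limma adjusted p = 0.0607), with libraries scaled to their total reads (0.24, adjusted p = 0.0899) and when only the groups compared were fitted (0.30, adjusted p = 0.112).

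The remaining 4 genes did not pass the test with either retinoid alone. NCOR1, the scaffold of the corepressor complex, had log2 fold changes of 0.23 with ATRA (95% confidence interval 0.02 to 0.44, limma adjusted p = 0.0993) and 0.14 with AM80 (-0.07 to 0.35, adjusted p = 0.316). Its 3 ATRA libraries all lay above the untreated ones, and without untreated replicate 4 the values were 0.10 and 0.01. MED1 had 0.15 (-0.02 to 0.33) with ATRA and 0.07 (-0.10 to 0.25) with AM80. For NCOA1 (SRC-1) the values were 0.10 (-0.08 to 0.28) and -0.05 (-0.23 to 0.13), and for NCOA7, a coactivator outside the p160 family, -0.03 (-0.25 to 0.19) and 0.10 (-0.12 to 0.31). All of these intervals end below the lower bounds of NCOA3 and NRIP1, at 1.47 and 0.99 with ATRA.

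**Figure D2:**
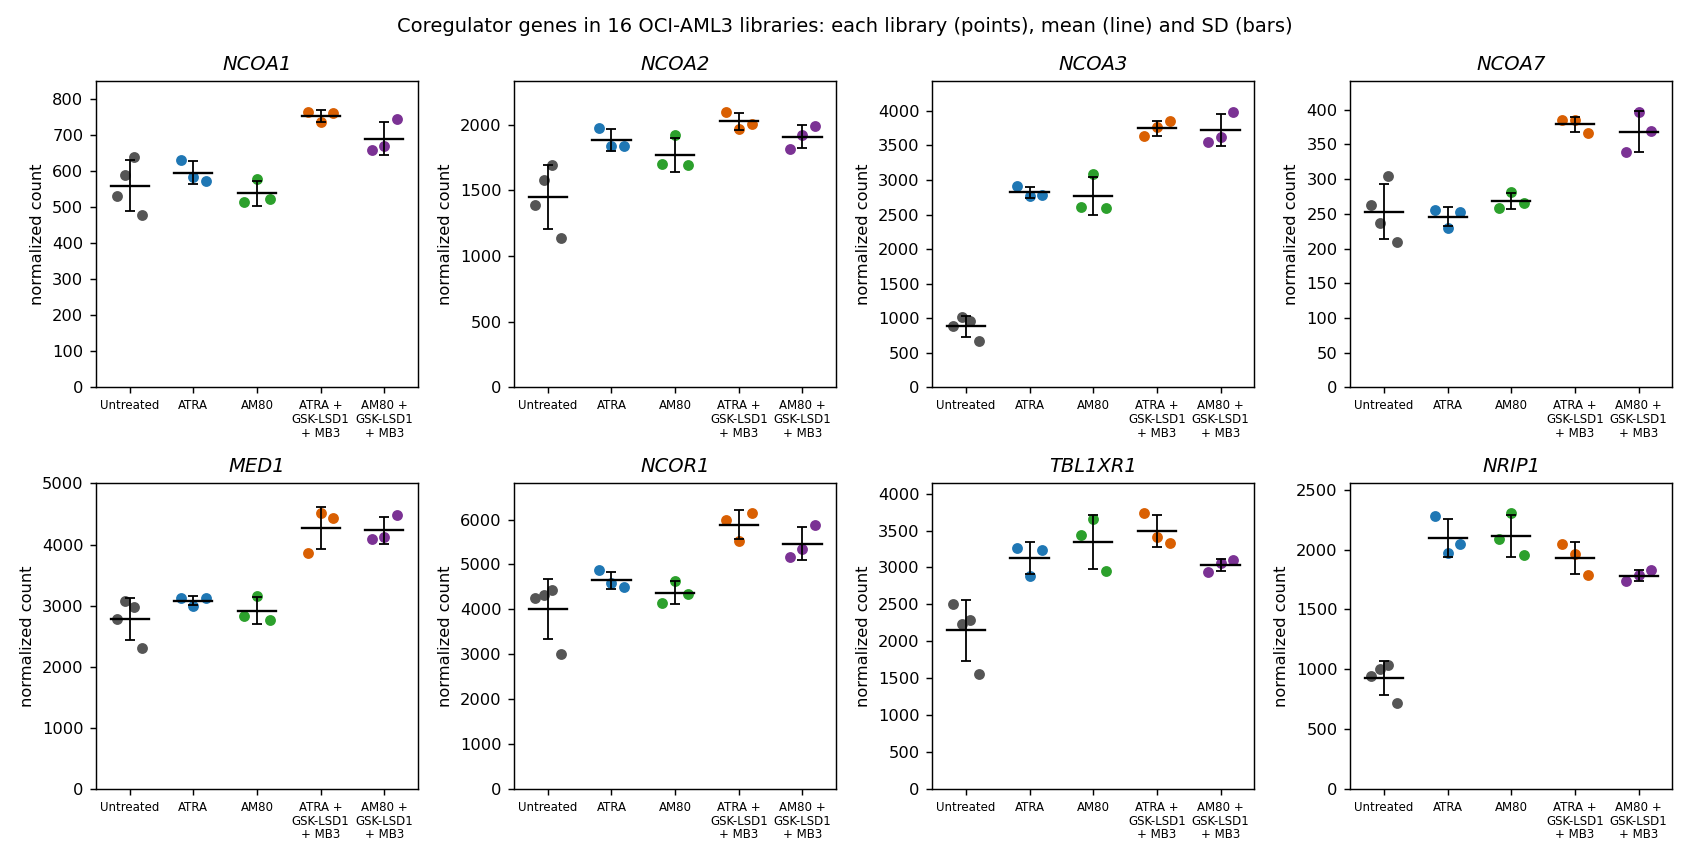
Normalized counts of the 8 coregulator genes, each in its own panel with an axis from 0, in the 5 groups. Points are single libraries (replicates in order from left to right), lines are means and bars SDs. In the NCOA3 and NRIP1 panels the untreated libraries (at most 1024 and 1033) lie far below all treated ones, and in the MED1, NCOA7, NCOA1 and NCOR1 panels the libraries with inhibitors lie above all others.

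The next question was what GSK-LSD1 and MB3 added to a retinoid. MED1, NCOA7, NCOA3, NCOA1 and NCOR1 rose on adding them, beside ATRA and beside AM80, of which only NCOA3 had also been called higher with a retinoid alone, while NCOA2, TBL1XR1 and NRIP1 were not called. That made 5 of 8 higher and 0 of 8 lower in each comparison (limma, adjusted p under 0.05). Over all genes tested 24.9% were called higher beside ATRA, 19.9% beside AM80 and 15.9% beside both, and 24.4% and 19.5% were called lower. All libraries with inhibitors lay above all those without for 6 of 8 genes beside ATRA (31.5% of all genes) and 5 beside AM80 (25.3%). The 8 genes had a median of 0.34 (log2 fold change) in each, against -0.02 and -0.01 over all genes. Of the 4 genes that were not called with a retinoid alone, all 4 were called here, at log2 fold changes of 0.32 to 0.62.

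MED1 went from 3131, 2992 and 3124 normalized counts with ATRA to 3868, 4510.3 and 4434 with ATRA and inhibitors, and from 2825, 3166 and 2763 with AM80 to 4089, 4126 and 4485. Every library with inhibitors was above every library without. The log2 fold change was 0.47 ± 0.09 (SE) beside ATRA (limma adjusted p = 0.000283) and 0.54 ± 0.09 beside AM80 (adjusted p = 8.47e-05). NCOA7 was the least abundant of the 8 and had the largest log2 change beside ATRA. It went from 255, 230.3 and 252 to 386, 385 and 366 beside ATRA and from 258, 282 and 266 to 339, 397 and 369 beside AM80. Its groups did not overlap, and the log2 fold changes were 0.62 ± 0.11 (SE, limma adjusted p = 0.000115) and 0.45 ± 0.11 (adjusted p = 0.00271).

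NCOA3 rose again from its retinoid level, to 3632, 3773 and 3847 with ATRA and inhibitors and to 3556, 3624 and 3988 with AM80 and inhibitors. All of these libraries lay above all libraries with a retinoid alone. The log2 fold change was 0.41 ± 0.11 (SE) beside ATRA (limma adjusted p = 0.00409) and 0.43 ± 0.11 beside AM80 (adjusted p = 0.00359). NCOA1 had 631, 585 and 572 with ATRA and 765, 736 and 760.4 with ATRA and inhibitors, a log2 fold change of 0.34 ± 0.09 (limma adjusted p = 0.00519). Beside AM80 it went from 513, 579 and 523 to 658, 671 and 744, or 0.36 ± 0.09 (adjusted p = 0.00446). Again the groups were separate, and NCOA2 was the p160 gene that was not called on adding the inhibitors, at 0.11 (-0.11 to 0.32) and 0.11 (-0.10 to 0.32).

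NCOR1, the corepressor, rose with the coactivators. It had 4866, 4588 and 4497 normalized counts with ATRA and 5996, 5523 and 6137 with ATRA and inhibitors, and 4133, 4638 and 4346 with AM80 and 5165, 5344 and 5869 with AM80 and inhibitors. The libraries with inhibitors were all higher, by a log2 fold change of 0.34 ± 0.11 (SE) beside ATRA (limma adjusted p = 0.0123) and 0.32 ± 0.11 beside AM80 (adjusted p = 0.0215). The call beside AM80 rested on single libraries: it was lost without AM80 replicate 1 (log2 0.28, limma adjusted p = 0.0842), without AM80 replicate 3 (0.32, adjusted p = 0.0523) or without replicate 3 of AM80 with inhibitors (0.27, adjusted p = 0.0954).

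NRIP1 and TBL1XR1 were not called on adding the inhibitors. NRIP1 had 2049, 1964 and 1787 normalized counts with ATRA and inhibitors and 1734, 1787 and 1829 with AM80 and inhibitors, 2.1-fold and 1.94-fold the untreated level. The latter 3 libraries lay below all 3 with AM80 alone. Adding the inhibitors gave log2 fold changes of -0.12 (95% confidence interval -0.34 to 0.10) beside ATRA and -0.24 (-0.46 to -0.02) beside AM80 (limma adjusted p = 0.0741). The latter was called lower in the fit without untreated replicate 4 (-0.24, limma adjusted p = 0.00777) and by edgeR (-0.27, adjusted p = 0.0355). It was also called lower with quantile normalization (-0.36, limma adjusted p = 0.0185), with scaling to total reads (-0.37, adjusted p = 0.0139) and when only the groups compared were fitted (-0.24, adjusted p = 0.0245). The replicate block and the fit without untreated replicate 4 and AM80 replicate 2 called it too. DESeq2 and the remaining alternatives did not, with a limma adjusted p of up to 0.217 when a single library was left out. TBL1XR1 had 3732, 3419 and 3329 with ATRA and inhibitors and 2940.1, 3058 and 3099 with AM80 and inhibitors, with log2 fold changes of 0.16 (-0.09 to 0.41) and -0.14 (-0.39 to 0.12). Its libraries with ATRA and inhibitors all lay above those with ATRA alone. Beside ATRA it was called higher when only the groups compared were fitted (limma adjusted p = 0.0240). The same held without untreated replicate 4 and AM80 replicate 2 together (adjusted p = 0.0283). Over the alternatives this log2 fold change ran from -0.01 to 0.19.

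Scaling touched the size of the inhibitor changes. With libraries scaled to their total reads in place of size factors, the median of all genes moved by -0.16 beside ATRA and -0.13 beside AM80 (log2), and the share of called genes that were higher went from 50.5% to 29.8% and from 50.5% to 29.3%. Under that scaling MED1 and NCOA7 kept their calls beside both retinoids, at 0.32 and 0.48 beside ATRA and 0.41 and 0.33 beside AM80. NCOA3 was called beside AM80 (0.31) and not beside ATRA (0.26, limma adjusted p = 0.0720), and NCOA1 and NCOR1 lost their calls, at 0.19 and 0.19 beside ATRA and 0.23 and 0.20 beside AM80. With quantile normalization NCOA3 (0.23 and 0.28) and NCOR1 (0.20 and 0.18) were not called on adding the inhibitors to ATRA and AM80. NRIP1 was called lower beside AM80 under both of these scalings. Relative to the median shifted by total reads, the 5 genes stood at 0.36 to 0.64 beside ATRA and 0.33 to 0.55 beside AM80. Scaling moves all genes of a library by nearly the same factor, and taking off the median undoes it. These values thus repeat the size-factor result and are no separate test of it.

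**Figure D3:**
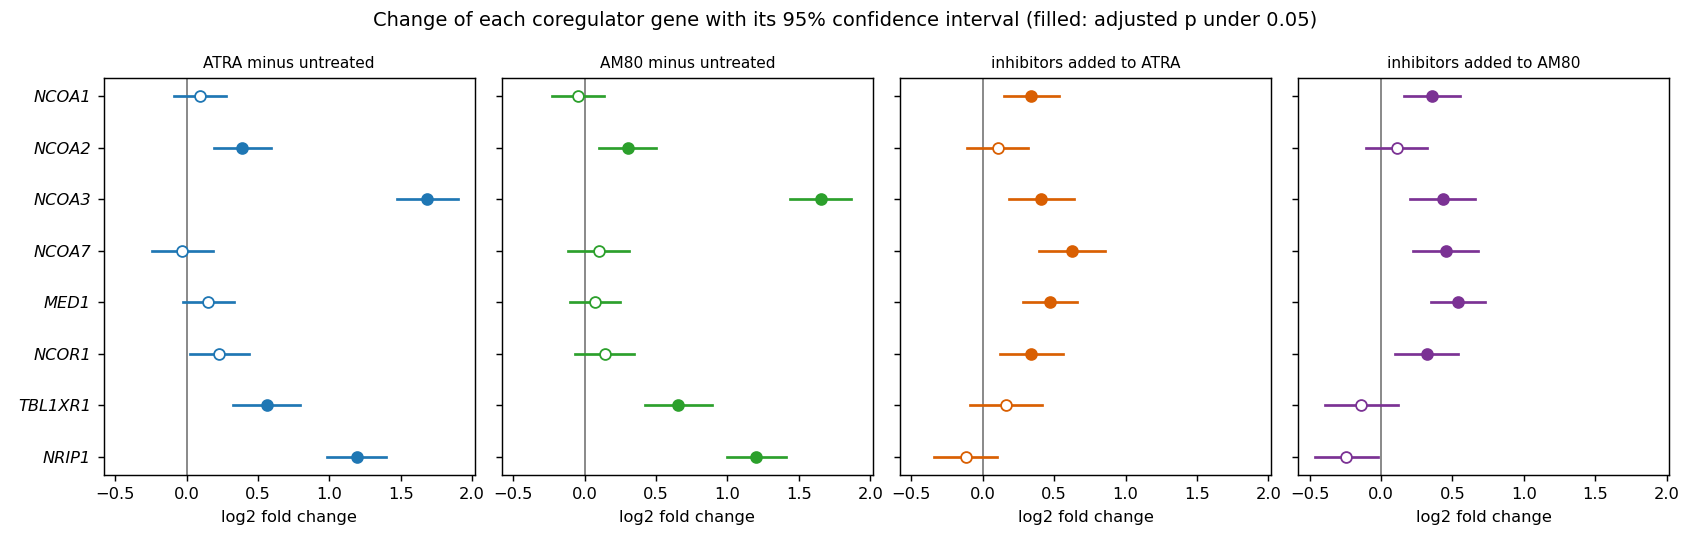
Log2 fold change of each of the 8 genes with ATRA or AM80 against untreated cells (left panels) and on adding GSK-LSD1 and MB3 to each retinoid (right panels). Dots are estimates from limma, lines 95% confidence intervals, and filled dots have an adjusted p under 0.05: NCOA3 and NRIP1 stand at 1.19 to 1.69 in the left panels, and the filled dots of the right panels are NCOA1, NCOA3, NCOA7, MED1 and NCOR1.

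Against untreated cells, every one of the 8 genes was higher with both combinations. All 8 were called higher with ATRA and inhibitors and all 8 with AM80 and inhibitors (limma, adjusted p under 0.05), where 30.2% and 28.0% of all genes tested were called higher and 30.0% and 26.6% lower. For 8 of 8 genes all 3 libraries of each combination lay above all 4 untreated ones, which held for 29.9% and 27.8% of all genes. NCOA3 had log2 fold changes of 2.10 ± 0.10 and 2.08 ± 0.10 (SE), or 4.28-fold and 4.24-fold (limma adjusted p = 5.82e-13 and 5.59e-13). The other 7 ranged from 0.44 (NCOA1) to 1.07 (NRIP1) with ATRA and inhibitors and from 0.31 (NCOA1) to 0.96 (NRIP1) with AM80 and inhibitors. Without untreated replicate 4 all 8 were again called with each combination, NCOA3 at 1.97 and 1.96 and NCOA1, the smallest, at 0.36 and 0.24. Scaled to total reads, where the median of all genes moved by -0.15 and -0.19 and the called genes went from 4422 higher and 4397 lower to 3159 and 5860 with ATRA and inhibitors and from 4103 and 3901 to 2636 and 6028 with AM80 and inhibitors, 8 of 8 coregulators were called higher with ATRA and inhibitors. With AM80 and inhibitors 6 of 8 were, and NCOA1 (0.12) and NCOA2 (0.23) were not. With quantile normalization NCOR1 was not called with AM80 and inhibitors (0.24, limma adjusted p = 0.0659).

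ATRA and AM80 were compared directly at the same dose and time, alone and with the inhibitors, which made 2 pairs. By limma 0 of 8 coregulators were called in either pair, 0 had an unadjusted p under 0.05, and edgeR and DESeq2 also called 0. Over all genes tested 0.239% were called without the inhibitors and 0.0% with them. The adjusted p-values, taken over all genes within each pair, ran from 0.520 to 0.985 and from 0.376 to 0.963. Without inhibitors NCOA3 differed by -0.03 (AM80 minus ATRA, log2, 95% confidence interval -0.26 to 0.19) and NRIP1 by 0.01 (-0.21 to 0.23). The intervals of all 8 genes lay between -0.34 and 0.36. The highest was NCOA7 at 0.13 (-0.10 to 0.36), whose AM80 libraries all lay above those with ATRA. With inhibitors NCOA3 differed by -0.01 (-0.24 to 0.22) and all intervals lay between -0.46 and 0.22. The lowest of these was TBL1XR1 at -0.20 (-0.46 to 0.05), whose 3 libraries with AM80 and inhibitors all lay below the 3 with ATRA and inhibitors, and which was called when only the groups compared were fitted (limma adjusted p = 0.0174). The test of whether the inhibitors acted differently beside the 2 retinoids called 0 of 8 (limma, 0.0% of all genes, 0 of 8 at an unadjusted p under 0.05, 0 of 8 by edgeR and DESeq2), with intervals between -0.65 and 0.34.

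**Figure D4:**
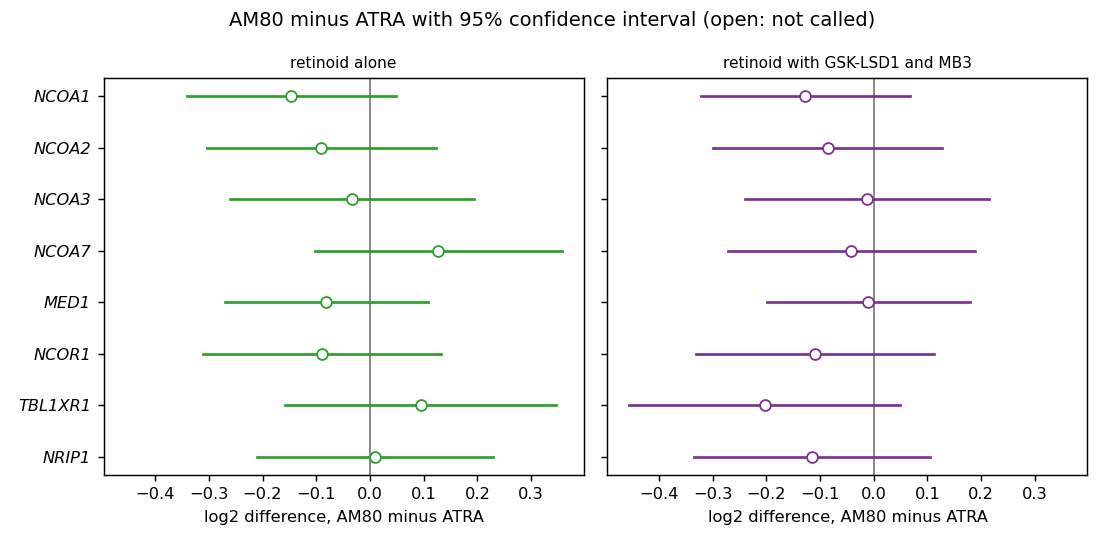
Difference between AM80 and ATRA for each of the 8 genes, without the inhibitors (left) and with them (right), as log2 of AM80 minus log2 of ATRA. Dots are limma estimates and lines 95% confidence intervals: every interval includes 0, and all of them lie between -0.46 and 0.36.

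The coregulators were then set among the subunits of their complexes, in lists that were chosen with results of these data known. The lists hold the members themselves, so their counts and medians partly repeat the results above. Of 6 genes of the NCoR complex, all of them tested, 2 were called higher and 1 lower with ATRA, and 2 higher and 1 lower with AM80, where 12.5% and 12.1% of all genes tested were called higher and lower with ATRA and 15.4% and 13.4% with AM80. Besides TBL1XR1 the gene that rose with both was CORO2A, a component of the complex, at log2 fold changes of 1.31 ± 0.20 and 1.48 ± 0.20 (limma adjusted p = 3.61e-05 and 7.05e-06) from a low level of 21.8 ± 5.12 normalized counts (SD, n = 4) in untreated cells. HDAC3, the catalytic subunit, fell by 0.29 and 0.24 (log2, adjusted p = 0.00267 and 0.00982), the second of which was lost without AM80 replicate 2 (adjusted p = 0.0516). With the inhibitors added to ATRA, 1 of the 6 genes was called, and it rose. With the inhibitors added to AM80, 3 of the 6 were called, of which 2 rose and 1, CORO2A, fell (-0.64, a call lost without AM80 replicate 1, at limma adjusted p = 0.146, and without replicate 1 or 3 of AM80 with inhibitors, at 0.0593 and 0.0785). Over all genes tested 24.9% and 24.4% were called higher and lower with the inhibitors beside ATRA, and 19.9% and 19.5% beside AM80. NCOR1 was the 1 gene that rose in both settings.

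Among the p160 genes and their partner enzymes (7 genes, all tested) 4 were called higher beside ATRA and 5 beside AM80 on adding the inhibitors, and 0 lower, where 24.9% and 19.9% of all genes tested were called higher and 24.4% and 19.5% lower. The medians, 0.34 and 0.36, were the values of NCOA1 itself, beside -0.02 and -0.01 over all genes. Next to NCOA1 and NCOA3 these included both acetyltransferases that p160 proteins recruit. CREBBP (CBP) rose by 0.63 ± 0.12 and 0.86 ± 0.12 and EP300 (p300) by 0.55 ± 0.11 and 0.65 ± 0.11 (log2, SE, limma adjusted p = 0.000333 or lower for CREBBP and 0.000533 or lower for EP300). With a retinoid alone, 3 of the 7 were called higher with ATRA, and 2 higher and 1 lower with AM80, where 12.5% and 15.4% of all genes were called higher and 12.1% and 13.4% lower, and NCOA3 and NCOA2 were the 2 called higher with both.

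Of the 33 genes of Mediator, 10 were called higher and 6 lower on adding the inhibitors to ATRA and 9 higher and 4 lower beside AM80, with medians of 0.12 and 0.06. These shares were near those over all genes tested, of which 24.9% were called higher and 24.4% lower beside ATRA and 19.9% and 19.5% beside AM80. The largest rises with both were MED13, of the kinase module, at 0.69 ± 0.11 and 0.66 ± 0.11, MED23 at 0.71 ± 0.09 and 0.57 ± 0.09, and then MED1. The largest falls were MED11 at -0.72 ± 0.14 and -0.59 ± 0.14 and MED18 at -0.55 ± 0.10 and -0.53 ± 0.10 (all 4 with limma adjusted p = 0.00217 or lower). MED22, the third, fell by 0.49 and 0.24, and its call beside AM80 (adjusted p = 0.0378) was lost without AM80 replicate 1 (adjusted p = 0.210), AM80 replicate 3 (0.112) or replicate 2 or 3 of AM80 with inhibitors (0.0751 and 0.160). With a retinoid alone 0 of 33 were called higher and 1 lower with ATRA, and 5 higher and 1 lower with AM80, against 12.5% higher and 12.1% lower, and 15.4% and 13.4%, of all genes. The 1 gene called with both was MED22, at -0.23 and -0.37. Its call with ATRA was near the threshold (limma adjusted p = 0.0488) and held under 13 of 28 alternatives. It was lost with no filter (adjusted p = 0.102), without any 1 of the ATRA libraries (0.108 to 0.123) and without untreated replicate 1, 2 or 4 (0.0969, 0.0636 and 0.1003).

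Of 21 other coregulators, a list that holds the members NRIP1 and NCOA7, 19 were tested, all but HR and PPARGC1A. With ATRA 4 were called higher and 3 lower, and with AM80 5 and 2, where 12.5% and 12.1% of all genes tested were called with ATRA and 15.4% and 13.4% with AM80. Next to NRIP1 the largest rise was that of LCOR, a ligand-dependent corepressor, at 0.63 ± 0.12 and 0.55 ± 0.12 (limma adjusted p = 0.000363 and 0.00112), which rose by 0.63 ± 0.13 and 0.54 ± 0.13 once more on adding the inhibitors. NSD1, a histone methyltransferase that binds receptors, was called higher with both (0.35 and 0.22), with AM80 at the threshold (adjusted p = 0.0494, called under 7 of 28 alternatives), and PPRC1 fell by 0.31 and 0.49. NCOA4, a receptor coactivator better known as the autophagy receptor of ferritin, had -0.30 and -0.21 with the retinoids and then 0.65 and 0.50 on adding the inhibitors, its call with AM80 alone being lost without AM80 replicate 1 (adjusted p = 0.0710) or 3 (0.0729). On adding the inhibitors 9 of the 19 were called higher beside each retinoid and 3 and 2 lower, against 24.9% and 19.9% higher and 24.4% and 19.5% lower over all genes tested. The member NCOA7 was among these 9. The falls with both were BCOR, the BCL6 corepressor, at -1.06 ± 0.11 and -1.28 ± 0.11 (limma adjusted p = 1.42e-07 and 1.07e-08), and the coactivator PPARGC1B at -0.85 ± 0.12 and -0.92 ± 0.12 (6.63e-06 and 3.19e-06).

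**Figure D5:**
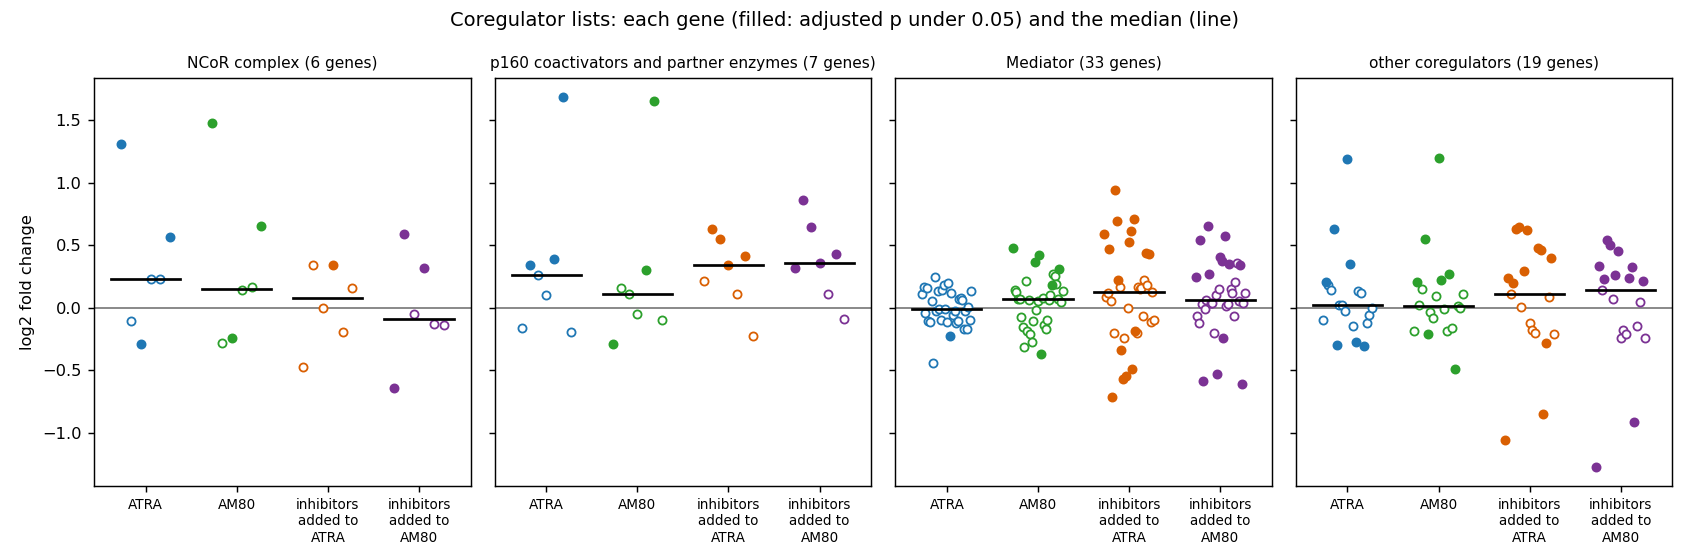
Log2 fold change of every tested gene in 4 coregulator lists, with ATRA or AM80 against untreated cells and on adding the inhibitors to each. Points are genes, filled where the limma adjusted p was under 0.05, and lines are list medians: the Mediator points spread from -0.72 to 0.95 on adding the inhibitors to ATRA, around a median of 0.12.

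The 8 genes did not share 1 pattern over the 16 libraries. The Pearson correlation of log2 values between members was highest for TBL1XR1 with NRIP1 (0.928) and lowest for NCOA7 with NRIP1 (0.378), over libraries that share their groups and are thus not independent. Among the 11301 genes whose mean reached 50 normalized counts, the genes most like NCOA3 were CREB3L2 (r = 0.995), IL31RA (0.994) and CDYL2 (0.994). Those most like NRIP1 were EDEM1 (0.988), MYOF (0.980) and PTGIS (0.978). For MED1 they were NUP98, HIPK1 and OSBP (each 0.985), for NCOA7 CILK1 (0.977), MEF2A (0.974) and GOLM2 (0.971), and for NCOR1 CLSTN2 (0.980), AAK1 (0.980) and GAPVD1 (0.979). NCOA1 was closest to MYSM1 (0.972), TASOR2 (0.971) and ANKRD17 (0.969), NCOA2 to FOXN3 (0.977), PIK3R1 (0.977) and TMEM131 (0.969), and TBL1XR1 to HELLS (0.974), MINDY2 (0.972) and GNPTAB (0.947). No other gene was in the closest 3 of more than 1 coregulator.

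In GENCODE 29 (GRCh38) NCOA3 spans chr20:47501902-47656877 on the plus strand and NRIP1 chr21:14961235-15065936 on the minus strand. MED1 spans chr17:39404285-39451286 and NCOR1 chr17:16029157-16218185, both on the minus strand, and TBL1XR1 lies at chr3:177019340-177228000 on the minus strand. NCOA1 spans chr2:24491914-24770702 and NCOA7 chr6:125781161-125932030 on the plus strand, and NCOA2 chr8:70109762-70403805 on the minus strand. Reads of the 3 p160 genes could be told apart from each other, since they share 0 stretches of 51 bases, the read length, with each other. With transcripts of other genes NRIP1 shares 503 of its stretches (5.86%), NCOR1 592 (3.68%, some with NCOR1P1) and TBL1XR1 192 (1.55%). NCOA3 shares 93 (1.10%). Overlap with other genes was small: NCOA3 shares 96 exon bases (1.14% of its exon length) with SULF2 on the other strand, and NCOR1 321 (2.08%) with PIGL. NRIP1 shares 562 (6.61%) with the antisense gene AF127577.1, which was listed at 0 in all libraries. It also shares 87 (1.02%) with AF127577.4 on the same strand, which had a mean of 40.7 normalized counts. The strand setting of the counting is not given in the sources used here, so reads in these stretches could belong to either gene.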

How the data were processed

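OCI-AML3 RNA was sequenced in 16 libraries. Per the labels and the paper's methods, the authors processed reads on Galaxy with FastQC, cutadapt, STAR, featureCounts and DESeq2, and deposited DESeq2-normalized counts (a signal value: reads divided by a size factor per library). Genome build, annotation release and strand setting are not given in the sources used here. The labels name NucleoSpin and NEBNext kits, the paper's methods other ones. In each library 100% of values came out as whole reads (tolerance 1e-06 relative).

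Values were analysed as log2(normalized count + 1), so low genes' fold changes are understated, for 14643 genes whose mean reached 10. One limma fit (R 4.3.3, limma 3.58.1) held all 5 groups, with a mean-variance trend, and the Benjamini-Hochberg adjustment was made separately in each of 9 comparisons. Genes with an adjusted p under 0.05 were called, with no limit on the fold. The count tests edgeR 4.0.16 and DESeq2 1.42.0 on the recovered reads called 3737 and 3593 genes for ATRA against untreated cells, where limma called 3609. In data simulated for that comparison with 14643 genes, limma called 80% of genes raised 1.5-fold, 90% of those raised 2-fold and 15 unchanged genes. Other alternatives were other pseudocounts, filters and scalings, fits of fewer groups, a replicate block, a fold limit and each library left out. The replicate block also set untreated replicate 4 apart, since no other group had that number.

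The members, the lists (NCoR complex, p160 coactivators and partner enzymes, Mediator, other coregulators, retinoid receptors, cell type markers) and the tests were chosen with earlier results of these data known. Named were the 8 members, from each coregulator list up to 3 largest rises and 3 falls among genes called with both retinoids in a step, and the 3 genes most like each member. Gene lengths, positions and overlaps came from GENCODE 29, matched by stable identifier to the deposited identifiers, whose versions are newer. Promoters came from RefSeq, which held 7 of the 8 genes in the table used. Protein sequences were not used here. One item of the lists is not reported here.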

Additional observations from a re-analysis of the deposited data

Results flagged for a closer look

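NCOR1 in untreated cells had 1 library far from the other 3. Replicate 4 held 3009 normalized counts and the others 4257 to 4437, and its gap to the nearest library was 0.8745 of the range of the 4, above Dixon's 95% critical value. Chance flags about 1 in 20 groups of this kind. The same library was the lowest of the untreated ones for the other 7 coregulators, for which the gap stayed under the critical value. Without it the log2 fold change of NCOR1 against untreated cells was 0.10 for ATRA and 0.01 for AM80 alone, and 0.44 and 0.33 for their combinations with the inhibitors, and the calls of NCOR1 in these 4 comparisons did not change.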

How the results depend on the processing

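Each of the 72 results for a coregulator (8 genes in 9 comparisons) was computed under 28 alternatives. Of these 2016 values, 1962 kept their call and direction, 42 lost a call, 12 gained one and 0 called values reversed. With a limit of 1.5-fold the number of coregulators called was 2 for ATRA against untreated cells, 5 for ATRA with inhibitors and 3 for AM80 with inhibitors against untreated cells, and on adding the inhibitors 1 beside ATRA and 0 beside AM80. On adding the inhibitors to ATRA, quantile normalization called 3 and scaling to total reads 2. AM80 and ATRA, both with inhibitors, differed in 1 coregulator, TBL1XR1 (-0.20), when only the groups compared were fitted and when untreated replicate 4 and AM80 replicate 2 were left out together. With each library left out in turn the number called was 3 to 4 for AM80 against untreated cells and 4 to 6 on adding the inhibitors to AM80. It stayed at 4 for ATRA, 8 for each combination against untreated cells, 5 on adding the inhibitors to ATRA, and 0 for the direct comparisons and the interaction.

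Over all genes, the direct comparison of AM80 with ATRA called 35 genes by limma, and 0 with no filter or with only these groups, 18 scaled to total reads, 88 by edgeR, 291 by DESeq2, 402 with the replicate block and 516 without untreated replicate 4 and AM80 replicate 2. With inhibitors limma called 0 genes (2656 at an unadjusted p under 0.05), edgeR 0, DESeq2 98, the replicate block 690, the fit of only these groups 1975 and the fit without those 2 libraries 2304. For the interaction limma called 0 (2211 at an unadjusted p under 0.05) and DESeq2 24. With single libraries left out these counts ranged over 0 to 458, 0 to 646 and 0 to 41. Under scaling to total reads the called genes for AM80 against untreated cells went from 2253 higher and 1958 lower to 1751 and 2735.

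Replicate numbers did not pair the samples: the correlations of same-numbered libraries ran from -0.11 to 0.19 and no comparison had all 3 pairs above 0.1. With the replicate block, the AM80 call of NCOA2 was lost (0.19, limma adjusted p = 0.0514) and NRIP1 was called lower on adding the inhibitors to AM80 (-0.24, adjusted p = 0.0101), and no other call of the 8 genes changed. Number 4 occurred only in untreated cells, so the block also took untreated replicate 4 out of the comparisons. Its log2 values against untreated cells therefore equal those without that library, as for NCOA2 with AM80 at 0.19. With 3 or 4 libraries a group, the calls of the 8 genes that moved when 1 library was left out were NCOA2 with AM80 and, on adding the inhibitors to AM80, NCOR1 and NRIP1. Every coregulator had 209 or more normalized counts in every library. The cause of the differences between alternatives was not tested.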

Other observations

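Of 6 retinoid receptor genes 5 were tested, and 3 were called higher and 1 lower with each retinoid (12.5% and 12.1% of all genes tested with ATRA, 15.4% and 13.4% with AM80). On adding the inhibitors 1 was called higher beside each retinoid (24.9% and 19.9%), and 2 were called lower beside ATRA and 1 beside AM80 (24.4% and 19.5%). RARB, a receptor gene known as a direct retinoid target, went from 5.19 ± 1.92 normalized counts (SD, n = 4) in untreated cells to 128 ± 11.8 with ATRA and 153 ± 15.8 with AM80 (SD, n = 3), and it did not pass limma's test on adding the inhibitors. Beside AM80 it was called lower by edgeR (-0.43, adjusted p = 0.0237), by DESeq2 (-0.41, adjusted p = 0.0442) and by limma with scaling to total reads (-0.52, adjusted p = 0.0452). RARG rose by 0.86 ± 0.10 and 1.08 ± 0.10 (log2, SE) with ATRA and AM80 and fell by 0.92 and 1.10 on adding the inhibitors (limma adjusted p = 1.95e-06 or lower for all 4). At 111 ± 5.55 and 114 ± 0.961 normalized counts with the inhibitors it was back near its untreated level of 117 ± 14.9. RARA rose by 0.48 ± 0.09 and 0.38 ± 0.09 with the retinoids and by 0.84 ± 0.10 and 1.16 ± 0.10 more on adding the inhibitors, whereas RXRA fell by 0.33 and 0.42 with the retinoids. RXRB had -0.02 and 0.07 with the retinoids, which were not called, and on adding the inhibitors -0.31 beside ATRA (limma adjusted p = 0.0204) and -0.06 beside AM80 (adjusted p = 0.664). RXRG was not tested because of its low counts.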
